A study of Homo sapiens with 8 samples.

Results

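The chaperone genes described here are members of the heat shock protein, prefoldin, FKBP and BAG families, with the adaptor STIP1 and the heat shock factors HSF1 and HSF4. They were chosen by the gene symbols of the array platform, as names of the HSPA, HSPB, HSPD, HSPE, HSPH, DNAJ, CCT, FKBP, BAG, prefoldin and PDIA series or as TCP1, STIP1, AHSA1, HSF1, HSF2 or HSF4. The rule matched 37 of the 14884 named genes, and it set aside HSPA6, HSPA1A, HSPA1B and BAG3, which left 33. Of these, 28 code for proteins, 3 are long non-coding RNAs (DNAJC27-AS1, DNAJC9-AS1 and the readthrough HSPB2-C11orf52) and 2 are transcribed pseudogenes (FKBP9P1 and HSPA7). The DNAJ names among them were antisense RNAs only, so no J-domain protein is described. CCT subunits, PDIA enzymes, HSPA5, HSPA8 and HSPE1 are not analysed here. HSPBAP1 entered by its symbol and codes for a partner of the small heat shock protein HSPB1, not for a chaperone.

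Chaperones bind unfolded stretches of other proteins and help them to fold, to assemble or to be handed on for degradation. HSP70 proteins do this in cycles of ATP binding and release, BAG and HSP110 proteins exchange the nucleotide, and STIP1 passes the client from HSP70 to HSP90. Prefoldin takes newly made actin and tubulin chains to the CCT chaperonin, HSPD1 folds proteins inside mitochondria, and small heat shock proteins hold unfolded proteins without using ATP. When unfolded proteins accumulate, the transcription factor HSF1 raises transcription of many of these genes.

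THP-1, a human acute monocytic leukaemia cell line, was treated for 5 h with 6 µg/mL IPA-3, with 2 µg/mL FRAX-597, or with the same volume of the solvent DMSO. IPA-3 and FRAX-597 are small-molecule inhibitors of p21-activated kinases, the kinase family named by the study's title. Total RNA was hybridised to 8 Affymetrix arrays, 2 with IPA-3, 2 with FRAX-597 and 4 with DMSO, and no genetic change to the cells is stated. Each compound was compared with a pair of solvent arrays, IPA-3 with DMSO 1 and 2 and FRAX-597 with DMSO 3 and 4. The labels do not say that replicates were separate cultures, so the p-values measure the spread between arrays, which may be technical. As bulk RNA was measured, fewer cells carrying an RNA and less of that RNA per cell cannot be told apart.

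Values are log2 levels, so a change of 1 is a doubling. The array medians were 5.52 and 5.55 with IPA-3 and 5.51 in both DMSO 1 and DMSO 2, against 6.00 and 6.04 with FRAX-597 and 6.03 and 6.05 in DMSO 3 and 4. Correlations between arrays were 0.986 to 0.992 within the first 4 arrays and 0.974 to 0.990 within the other 4. Between these sets they were 0.942 to 0.955. Of 10 monocytic marker genes, 6 were measured and all 6, among them CD14, LYZ and CSF1R, lay above the array median on all 8 arrays. No B-cell marker on the list was among the named genes, and the fibroblast markers DCN and LUM were never above the median. Among epithelial markers, 3 of the 4 measured lay above the median on every array, while EPCAM was never above it. Of the T-cell markers 2 were measured and 1 lay above the median on every array, and the 1 erythroid marker measured did not.

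Heat shock factors bind inverted repeats of the letters GAA. Promoter windows of 3 genes from RefSeq (GRCh38.p14, 250 bases before to 50 after an annotated start, sense strand, 5′ to 3′) are shown because HSPH1 and STIP1 were the only protein-coding members whose changes with the compounds had opposite signs and separated from their DMSO arrays, and because HSPD1 held the long form of the repeat. Capitals mark GAANNTTC or TTCNNGAA, with N any base. The windows are chr13:31162339-31162638 on the minus strand for HSPH1, chr11:64185921-64186220 on the plus strand for STIP1 and chr2:197499791-197500090 on the minus strand for HSPD1.
HSPH1: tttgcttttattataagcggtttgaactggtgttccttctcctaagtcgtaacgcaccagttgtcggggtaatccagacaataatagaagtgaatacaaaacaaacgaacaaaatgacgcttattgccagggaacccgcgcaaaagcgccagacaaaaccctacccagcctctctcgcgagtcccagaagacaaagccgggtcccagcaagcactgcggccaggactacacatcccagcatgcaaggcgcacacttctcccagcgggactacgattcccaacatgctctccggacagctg
STIP1: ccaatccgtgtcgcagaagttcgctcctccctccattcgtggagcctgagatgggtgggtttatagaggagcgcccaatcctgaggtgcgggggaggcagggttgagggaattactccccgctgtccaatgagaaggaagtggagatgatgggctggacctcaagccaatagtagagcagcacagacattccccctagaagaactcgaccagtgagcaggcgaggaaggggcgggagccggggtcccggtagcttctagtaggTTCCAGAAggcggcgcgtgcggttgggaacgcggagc
HSPD1: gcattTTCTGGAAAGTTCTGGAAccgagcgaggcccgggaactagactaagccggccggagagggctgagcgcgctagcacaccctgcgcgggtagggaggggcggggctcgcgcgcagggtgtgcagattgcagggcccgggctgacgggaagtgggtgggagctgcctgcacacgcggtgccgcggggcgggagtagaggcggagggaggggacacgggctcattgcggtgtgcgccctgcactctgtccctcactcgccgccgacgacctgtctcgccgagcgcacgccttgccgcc
The STIP1 match begins 13 bases from the start site. The HSPD1 window shown holds 3 overlapping matches from position -245, which include the longer form TTCNNGAANNTTC. STIP1 and HSPD1 each had another window, not shown, without a match. The HSPH1 window has no match, which says only that these letters do not occur in these 300 bases. Of the 33 members, 25 had at least 1 window. In 10 of the 25 (40%) a window held the 8-letter motif in either form, against 16.2% of all 27305 genes with a window. The 13-letter forms GAANNTTCNNGAA and TTCNNGAANNTTC, which contain the 8-letter ones, were found in 1 member and in 0.608% of all genes with a window. These are matches of letters on both strands, not measured binding sites. With FRAX-597 the 10 members with the motif had a median change of -0.13, with 9 of 10 below 0. The 15 without it had a median of 0.02, with 7 below 0, and over all genes 54.7% were below 0. Of the 6 members lower with FRAX-597 at an unadjusted limma p under 0.05, only STIP1 held the motif, and BAG4 and HSPA14 had no window. A link between the motif and the change was not tested. With IPA-3 the medians were 0.01 with the motif and -0.00 without it.

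With IPA-3, no chaperone gene passed the test and the members' median change lay at that of all genes. The limma fit over all named genes, with Benjamini-Hochberg adjustment and a threshold of 0.05, called 0 of 33 members, where 0.0336% of all genes were called. The lowest adjusted p among the members was 0.615. At an unadjusted p under 0.05, 1 member was higher, FKBP5, and 1 was lower, HSPB3, against 3.10% of all genes higher and 4.11% lower. The members' changes ran from -0.30 to 0.42 with a median of -0.02, and the median of all genes was also -0.02. In 6 members both IPA-3 arrays lay above both DMSO arrays and in 9 they lay below both, which is 18.2% and 27.3% of the members, against 19.3% and 28.3% of all genes. A p above the threshold does not show an equal level. The 95% intervals of the 33 changes all lay inside a 2-fold change either way, and 22 lay inside a log2 change of 0.5.

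FKBP5, an HSP90 cochaperone that tunes steroid receptors, was the member with the largest positive change with IPA-3. It had log2 levels of 7.47 and 7.57 with IPA-3, against 7.08 and 7.11 in DMSO 1 and 2. Both IPA-3 arrays lay above both DMSO arrays, a change of 0.42 (SE 0.14, 95% interval 0.09 to 0.76, n = 2 arrays each) or 1.34-fold, with a limma adjusted p of 0.615. The sign rested on the choice of solvent arrays, since DMSO 3 and 4 read 8.12 and 8.18, and pooling all 4 DMSO arrays gave -0.10. With FRAX-597 FKBP5 read 8.37 and 7.97, a change of 0.02 (SE 0.14). The other FKBP members, FKBP7 of the endoplasmic reticulum and the pseudogene FKBP9P1, had changes of -0.09 and 0.15 with IPA-3, and of -0.02 and 0.06 with FRAX-597.

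Among HSP70 and HSP110 genes, 5 of 10 had a positive and 5 a negative change with IPA-3, with a median of 0.00. The largest was HSPA1L, an HSP70 that is abundant in testis and lies beside HSPA1A and HSPA1B in the MHC region. Its levels were 7.73 and 7.78 with IPA-3, against 7.28 and 7.45 in DMSO 1 and 2. The IPA-3 arrays lay above both DMSO arrays, with a change of 0.39 (SE 0.18, 95% interval -0.03 to 0.81) and a limma adjusted p of 0.711. HSPA1L is measured by 5 probes, of which 3 carried identical values, and the mean of all 5 gave 0.54 with IPA-3. With FRAX-597 the probe used here gave -0.16, the others gave 0.02 to 0.09, and the mean of all 5 gave 0.00. Its sequence is close to that of HSPA1A and HSPA1B, and a share of its signal that comes from those genes was not tested. HSPA1A and HSPA1B, which the rule set aside, had changes of 0.69 and 0.59 with IPA-3, and of -0.85 with FRAX-597 for both. HSPA6 and BAG3, set aside as well, had changes of 1.49 and 0.51 with IPA-3, and of 0.19 and -0.34 with FRAX-597.

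HSPH1, the inducible HSP110 that serves HSP70 as an exchange factor, read 12.01 on both IPA-3 arrays, against 11.95 and 11.86 in DMSO 1 and 2. The groups did not overlap, but the change was only 0.11 (SE 0.15, 95% interval -0.23 to 0.45), and 0.06 without DMSO 2. HSPA9, the mitochondrial HSP70, read 11.90 and 11.88 with IPA-3, against 11.90 and 11.94 with DMSO, a change of -0.03. HSPD1, the mitochondrial HSP60, read 10.40 and 10.43 with IPA-3, against 10.41 and 10.32 with DMSO, a change of 0.05. The arrays of both mitochondrial chaperones overlapped between the groups. HSPA14, a ribosome-associated HSP70, had levels of 8.62 and 8.56 with IPA-3, against 8.75 and 8.86 with DMSO. It lay lower on both IPA-3 arrays, with a change of -0.21 (SE 0.12, limma adjusted p 0.756).

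All 5 prefoldin members had a negative change with IPA-3, where 55.6% of all genes did. Their changes lay between -0.00 for PFDN5 and -0.22 for PFDN2, with a median of -0.08 and none called. The prefoldin subunit VBP1, whose symbol the rule does not match, went the other way with a change of 0.15. It read 7.66 and 7.72 with IPA-3, against 7.50 and 7.57 in DMSO 1 and 2. PFDN2 read 9.92 and 9.80 with IPA-3, against 10.03 and 10.12 with DMSO. PFDN4 read 7.06 and 7.07 with IPA-3, against 7.26 and 7.25 with DMSO, a change of -0.19 (SE 0.11, limma adjusted p 0.756). In PFDN1, PFDN2 and PFDN4 both IPA-3 arrays lay below both DMSO arrays, and in PFDN5 and PFDN6 the groups overlapped. With all 4 DMSO arrays pooled the change of PFDN2 was -0.02 and that of PFDN5 was 0.10.

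None of the 5 small heat shock protein members, HSPBAP1 included, was called with IPA-3. HSPB1, known as HSP27, read 12.66 and 12.60 with IPA-3, against 12.65 and 12.68 with DMSO, a change of -0.03 (SE 0.11). HSPB3, a muscle small heat shock protein, read 3.98 and 3.78 with IPA-3, against 4.13 and 4.24 with DMSO, a change of -0.30 (SE 0.13, limma adjusted p 0.685), or -0.20 without IPA-3 2. In 7 of the 8 arrays HSPB3 was in the dimmest 25% of all probes, so its signal is weak. HSPB8 and FKBP9P1 were that dim in 4 and 5 arrays. HSF1, the master regulator of the heat shock response, read 8.07 and 7.93 with IPA-3, against 8.11 and 8.10 with DMSO, a change of -0.10 (SE 0.10). Of the BAG genes, BAG2, which restrains the ubiquitin ligase CHIP, read 9.14 and 9.05 with IPA-3, against 8.94 on both DMSO arrays. BAG5 read 7.95 and 7.94 with IPA-3, against 8.03 and 8.07 with DMSO. The groups of BAG2 and BAG5 did not overlap, and their changes were 0.15 and -0.11.

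**Figure D1:**
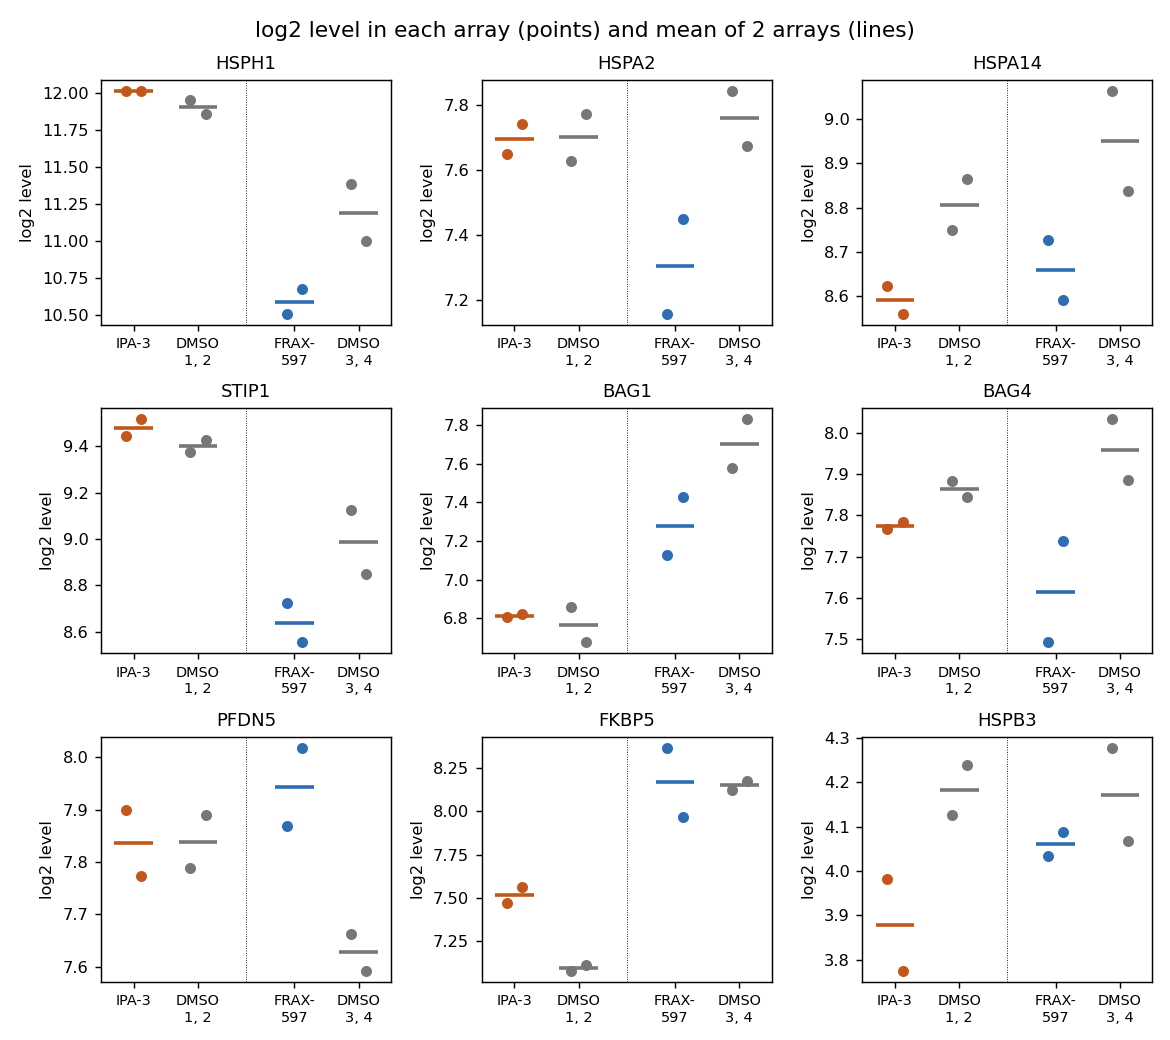
Log2 level (y axis, a separate scale per gene) of 9 chaperone genes in each array. Points are arrays, lines are means of 2 arrays, and the dotted line parts the array sets. IPA-3 stands left of DMSO 1 and 2, and FRAX-597 left of DMSO 3 and 4. HSPH1 read 10.51 and 10.67 with FRAX-597, below both of its DMSO arrays, and 12.01 on both IPA-3 arrays, above both of theirs.

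With FRAX-597, no chaperone gene passed the test either, and 22 of 33 changes (66.7%) were below 0, against 54.7% over all genes. Limma called 0 of 33 members, where 0.155% of all genes were called, and the lowest adjusted p was 0.291, that of HSPH1. At an unadjusted p under 0.05, 6 members were lower, HSPH1, HSPA2, BAG1, BAG4, STIP1 and HSPA14, and 1 was higher, PFDN5. That is 21.2% of the members in either direction, against 4.04% of all genes higher and 3.61% lower. This count of 7 was 4 without DMSO 3, 3 with all DMSO arrays pooled, 2 with the 4 arrays of the set fitted alone and 11 in a replicate block. In that block 33.3% of the members had such a p, against 14.8% of all genes. The labels do not give the block, which was taken from values of these data seen earlier, so its counts are only a description. The 33 changes ran from -0.60 to 0.34, with a median of -0.05, against a median of -0.02 over all genes. In 9 members (27.3%) both FRAX-597 arrays lay below both DMSO arrays and in 3 (9.09%) above both, against 17.8% and 13.0% of all genes. The 95% interval lay inside a 2-fold change for 32 members, the exception being HSPA4L with a lower bound of -1.06. These intervals rest on a spread per gene shared with the first array set, whose arrays lay closer together. With this set fitted alone the SE was 0.18 for HSPH1, 0.32 for BAG2 and 0.35 for HSPA4L. In the shared fit it was 0.15, 0.26 and 0.28, so the intervals of these genes are wider in the separate fit. For DNAJC9-AS1 the SE was 0.119 alone and 0.123 shared.

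HSPH1 had the largest change. It read 10.51 and 10.67 with FRAX-597, against 11.38 and 11.00 in DMSO 3 and 4. Both FRAX-597 arrays lay below both DMSO arrays, by 0.60 on average (change -0.60, SE 0.15, 95% interval -0.94 to -0.26, 1.52-fold lower, n = 2 arrays each). Its unadjusted p was 0.00387 and its limma adjusted p 0.291. The change was -0.41 without DMSO 3 and -0.96 with all 4 DMSO arrays pooled.

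STIP1, which links HSP70 and HSP90, read 8.72 and 8.55 with FRAX-597, against 9.12 and 8.85 in DMSO 3 and 4. It was below both DMSO arrays, with a change of -0.35 (SE 0.13, 95% interval -0.65 to -0.05, limma adjusted p 0.588), which was -0.21 without DMSO 3. With IPA-3 STIP1 read 9.45 and 9.52, against 9.38 and 9.43 in DMSO 1 and 2, a change of only 0.08 (SE 0.13). HSPA2, an HSP70 best known from sperm development, read 7.16 and 7.45 with FRAX-597, against 7.84 and 7.67 with DMSO. Its change was -0.45 (SE 0.14, limma adjusted p 0.434), again without overlap. HSPA14 read 8.73 and 8.59 with FRAX-597, against 9.06 and 8.84 with DMSO, a change of -0.29 (SE 0.12, limma adjusted p 0.643), or -0.18 without DMSO 3.

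Other HSP70 and HSP110 genes overlapped between the groups. HSPA4L, an HSP110 relative, read 10.18 and 9.40 with FRAX-597, against 10.51 and 9.89 with DMSO. Its change of -0.41 (SE 0.28) was smaller than the distance between its FRAX-597 arrays, and it ran from -0.80 without FRAX-597 1 to -0.02 without FRAX-597 2. HSPA4, its close paralog, read 10.25 and 9.77 with FRAX-597, against 10.38 and 10.00 with DMSO. HSPA9 read 11.40 and 10.87 with FRAX-597, against 11.23 and 10.91 with DMSO, a change of 0.07 (SE 0.19). HSPD1 read 11.02 and 10.78 with FRAX-597, against 11.15 and 10.98 with DMSO, a change of -0.16 (SE 0.13, 95% interval -0.46 to 0.13). Over the 10 HSP70 and HSP110 genes, 7 changes were below 0, where 54.7% of all genes were, and the median was -0.17. HSPA1L is among these 7 by the probe used, at -0.16, and the mean of its probes gave 0.00.

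All 4 BAG genes had a negative change with FRAX-597, where 54.7% of all genes did, with a median of -0.34 and none called. BAG1, an exchange factor of HSP70 that also binds BCL2, read 7.13 and 7.43 with FRAX-597, against 7.58 and 7.83 with DMSO. It lay below both DMSO arrays, with a change of -0.42 (SE 0.15, limma adjusted p 0.526). With all DMSO arrays pooled the change of BAG1 was 0.04 and that of BAG2 was 0.00. BAG4, known as the silencer of death domains, read 7.49 and 7.74 with FRAX-597, against 8.03 and 7.89 with DMSO, a change of -0.34 (SE 0.12, limma adjusted p 0.547). BAG2 read 8.96 and 9.59 with FRAX-597, against 9.27 and 9.93 with DMSO, overlapping, with a change of -0.33 (SE 0.26) that was -0.66 without DMSO 3 and -0.00 without DMSO 4. BAG5 read 7.51 and 7.67 with FRAX-597, against 7.83 and 7.75 with DMSO, a change of -0.20 (SE 0.11). Without FRAX-597 1 the changes were -0.28 for BAG1, -0.02 for BAG2, -0.22 for BAG4 and -0.12 for BAG5.

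On the high side, PFDN5, a prefoldin subunit that also binds MYC, read 7.87 and 8.02 with FRAX-597, against 7.66 and 7.59 with DMSO. Both FRAX-597 arrays lay above both DMSO arrays, with a change of 0.32 (SE 0.11, 95% interval 0.05 to 0.58, limma adjusted p 0.560). The other 4 prefoldin members had changes between -0.05 and 0.06, and VBP1, outside the members, had -0.13. HSPBAP1 read 8.10 and 7.71 with FRAX-597, against 7.48 and 7.65 with DMSO, a change of 0.34 (SE 0.15, limma adjusted p 0.662), or 0.15 without FRAX-597 1 and 0.53 without FRAX-597 2. DNAJC9-AS1, an antisense RNA, was the third member to lie above both DMSO arrays, with a change of 0.07. Among the small heat shock proteins, HSPB1 read 13.08 and 12.90 with FRAX-597, against 13.15 and 13.02 with DMSO, a change of -0.09 (SE 0.11). HSF1 read 8.76 and 8.82 with FRAX-597, against 8.86 on both DMSO arrays, a change of -0.06 (SE 0.10), and HSF4, the lens heat shock factor, had a change of 0.05.

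A list of 18 genes that HSF1 is known to induce had 7 among the measured members. With FRAX-597 all 7 changes were below 0, where 54.7% of all genes were, with a median of -0.19. None was called, where 0.155% of all genes were, and 2 were lower at an unadjusted p under 0.05, where 3.61% of all genes were. With IPA-3, 4 were above and 3 below 0, where 55.6% of all genes were below, with a median of 0.05, none called and none at an unadjusted p under 0.05. The list did not hold HSPA6, HSPA1A, HSPA1B and BAG3, which the rule set aside and which HSF1 is also known to induce. With IPA-3 they rose by 1.49, 0.69, 0.59 and 0.51. Their unadjusted limma p-values were 0.00052, 0.025, 0.042 and 0.0094, and none was called. With FRAX-597 their changes were 0.19, -0.85, -0.85 and -0.34, so HSPA6 was not below 0. Lists of folding factors by compartment were thinly measured, with 3 of 21 genes of the endoplasmic reticulum and 2 of 10 of mitochondria.

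**Figure D2:**
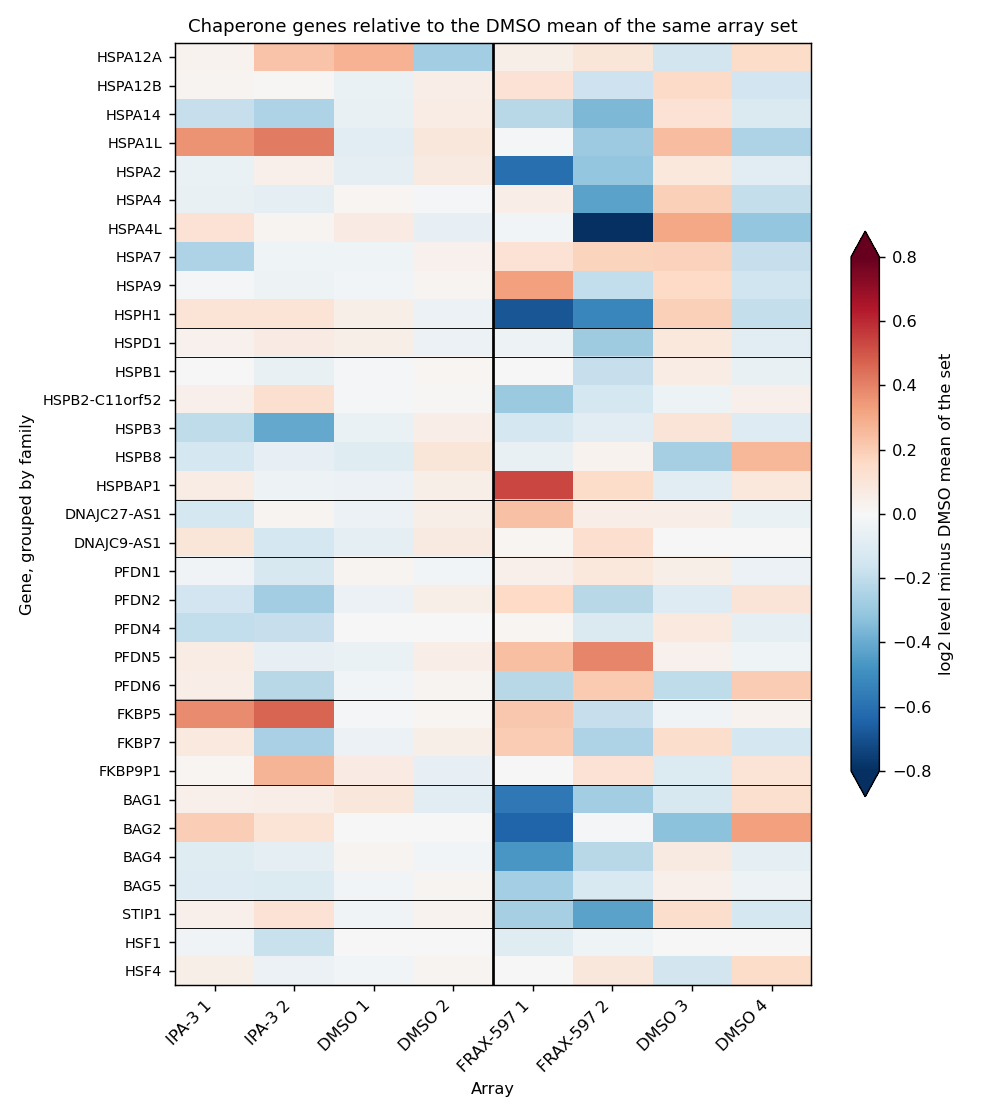
Log2 level of each of the 33 chaperone genes (rows, grouped by family) in each of 8 arrays (columns), minus the DMSO mean of the same array set. Blue is below and red above that mean, with colours cut at 0.8 either way. The heavy line parts the sets. The 4 BAG genes, HSPH1 and STIP1 averaged below 0 with FRAX-597, while HSPA1L and FKBP5 lay above 0 on both IPA-3 arrays.

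The change with FRAX-597 minus the change with IPA-3 asks whether the compounds moved a gene differently. Doses differed (2 and 6 µg/mL), so it compares these treatments only, and the compared changes share no array. Limma called 0 of 33 members, where 0.0134% of all genes were called, and the lowest adjusted p was 0.635. At an unadjusted p under 0.05, 1 member, HSPH1, was lower and 0 were higher, against 2.67% of all genes lower and 3.43% higher. HSPH1 had a difference of -0.71 (SE 0.21, 95% interval -1.20 to -0.23, limma adjusted p 0.635). The next largest were HSPA1L at -0.54, BAG2 at -0.48, HSPA4L at -0.48 and BAG1 at -0.47, each with an interval that included 0. STIP1 had a difference of -0.43 (SE 0.18, limma adjusted p 0.807). In 3 members (9.09%), HSPH1, STIP1 and HSPB2-C11orf52, the IPA-3 arrays lay above and the FRAX-597 arrays below their DMSO arrays, against 2.95% of all genes. The positive differences were smaller. HSPBAP1 had 0.33, PFDN5 0.32 and the HSPA7 pseudogene 0.29. Among the members, all 4 BAG genes had a negative difference and all 5 prefoldins a positive one, and 8 of 10 HSP70 and HSP110 genes were negative. Over all genes 48.4% of the differences were below 0, and none of these family members was called. Relatives that the symbol rule did not match went the other way, the prefoldin subunit VBP1 at -0.29 and the HSP110 relative HYOU1 at 0.21. The set-aside HSPA6, HSPA1A, HSPA1B and BAG3 had -1.30, -1.53, -1.45 and -0.85. Over all members 15 differences were above and 18 below 0, with a median of -0.06, against 0.01 over all genes.

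Among the RNAs that code for no chaperone, DNAJC27-AS1 read 5.08 and 5.24 with IPA-3, against 5.17 and 5.26 in DMSO 1 and 2, and 5.35 and 5.17 with FRAX-597, against 5.17 and 5.06 in DMSO 3 and 4. Its changes were -0.06 and 0.14. DNAJC9-AS1 read 6.23 and 6.34 with FRAX-597, against 6.21 on both DMSO arrays, and had a change of -0.02 with IPA-3. The HSPA7 pseudogene read 4.89 and 5.11 with IPA-3, against 5.11 and 5.18 with DMSO, and 5.66 and 5.73 with FRAX-597, against 5.73 and 5.36 with DMSO. FKBP9P1 read 4.19 and 4.45 with IPA-3, against 4.24 and 4.11 with DMSO, and 4.49 and 4.61 with FRAX-597, against 4.38 and 4.60 with DMSO. In these RNAs the groups overlapped with either compound, except for DNAJC9-AS1 with FRAX-597. Of the members not yet given for both compounds, HSPA12A and HSPA12B, distant relatives of HSP70, had changes of 0.13 and 0.01 with IPA-3, and of 0.07 and -0.03 with FRAX-597. With IPA-3 the changes of HSPA4, HSPB8, PFDN6 and HSF4 were -0.07, -0.10, -0.08 and 0.00, and with FRAX-597 they were -0.19, -0.02, -0.01 and 0.05.

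**Figure D3:**
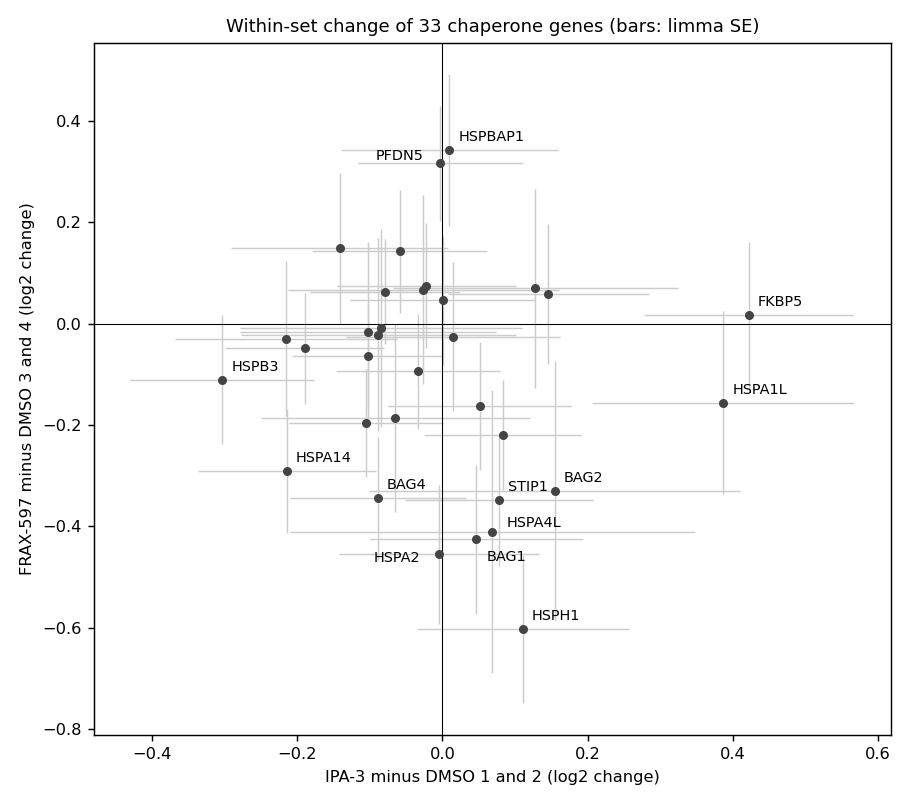
Log2 change with FRAX-597 relative to DMSO 3 and 4 (y axis) against log2 change with IPA-3 relative to DMSO 1 and 2 (x axis) for the 33 chaperone genes, with bars of 1 limma standard error. HSPH1 lies lowest at -0.60 on the y axis and FKBP5 farthest right at 0.42 on the x axis. No point passed the adjusted test on either axis.

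The solvent arrays of the sets differed from each other in many of these genes. DMSO 3 and 4 minus DMSO 1 and 2 had a median of 0.48 over all genes and 0.23 over the 33 members. Against the general shift of 0.48, 12 members were above it, and 11 were below 0. PFDN1 read 10.36 and 10.26 in DMSO 3 and 4, against 8.19 and 8.15 in DMSO 1 and 2, a difference of 2.14. With the compounds, PFDN1 read 10.35 and 10.40 with FRAX-597 and 8.14 and 8.04 with IPA-3, next to the solvent arrays of its own set. FKBP5 was 1.05 higher in DMSO 3 and 4. HSPA9 at -0.85, HSPH1 at -0.71 and STIP1 at -0.42 lay lower there, against the direction of the general shift. The labels do not say what set these arrays apart, and its part in the results was not tested.

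**Figure D4:**
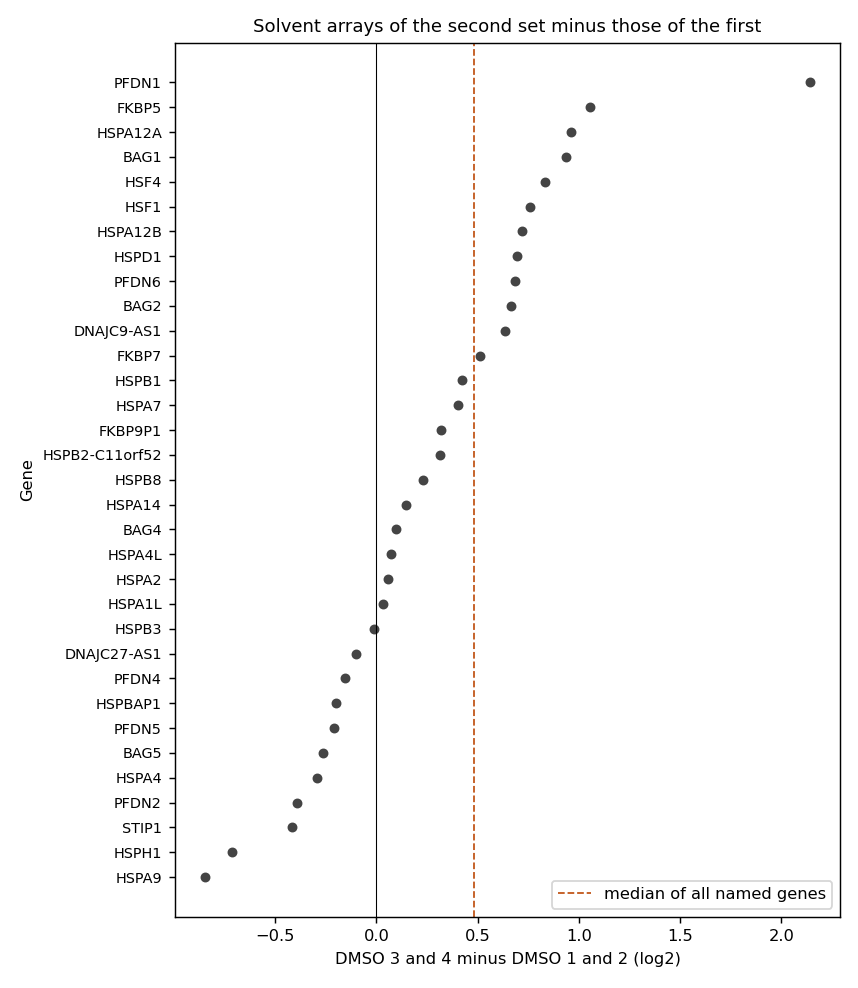
Mean log2 level in DMSO 3 and 4 minus that in DMSO 1 and 2 (x axis) for each chaperone gene (y axis, sorted). The dashed line is the median of all named genes, 0.48. PFDN1 is farthest right at 2.14, and HSPA9 and HSPH1 are farthest left at -0.85 and -0.71.

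Arrays of the same treatment were farther apart in the second set. The median absolute difference of the 33 members was 0.177 between the FRAX-597 arrays and 0.221 between DMSO 3 and 4, and 0.0909 between the IPA-3 arrays and 0.0913 between DMSO 1 and 2. Over all genes the same values were 0.190, 0.168, 0.128 and 0.0970. In the second set these differences ran alike in several members. FRAX-597 1 exceeded FRAX-597 2 by 0.78 in HSPA4L, 0.48 in HSPA4 and 0.53 in HSPA9, and DMSO 3 exceeded DMSO 4 by 0.62, 0.38 and 0.31 in the same genes. BAG2 was lower by 0.63 in FRAX-597 1 than in FRAX-597 2 and lower by 0.66 in DMSO 3 than in DMSO 4. The sign was shared by 21 of 33 members, with a correlation across genes of 0.58 (0.65 over all genes), given as a description since the genes of an array are not independent. In the first set 13 of 33 shared a sign, with a correlation of -0.33 (-0.06 over all genes). The labels give no link between a compound array and a DMSO array of the same set.

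**Figure D5:**
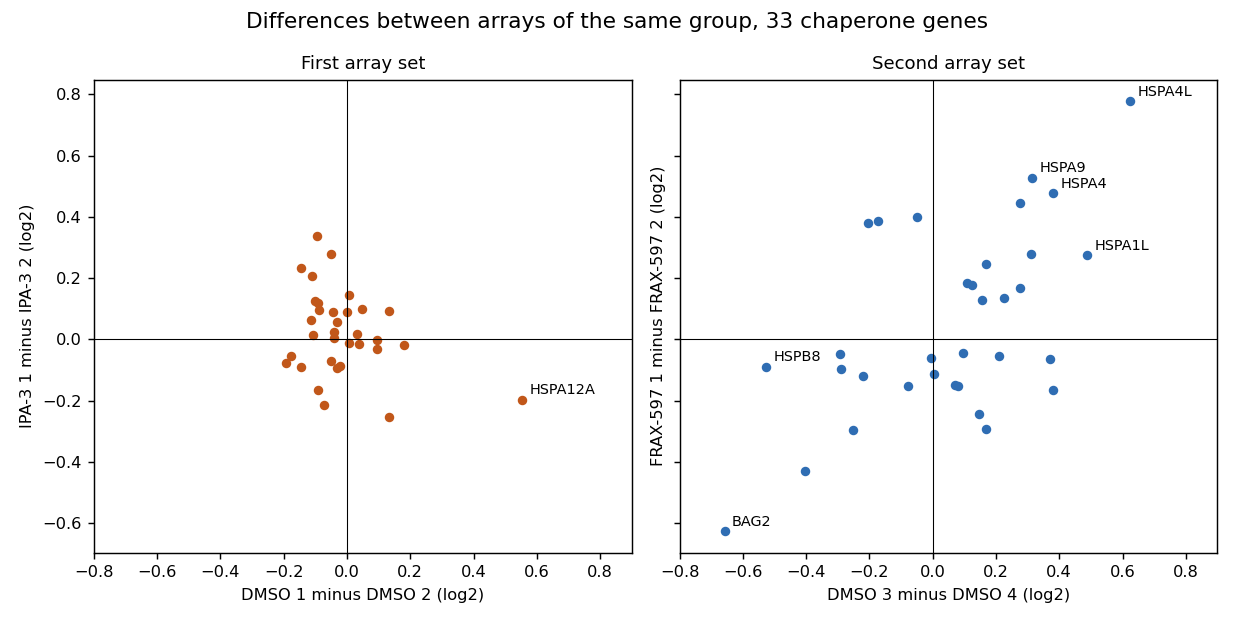
Difference between the arrays of a compound (y axis, log2) against the difference between the DMSO arrays of the same set (x axis, log2) for 33 chaperone genes. The left panel is the first set and the right panel the second. HSPA4L at the upper right and BAG2 at the lower left of the right panel differed the same way in both groups.

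Other genes of protein folding also gave no call. A list of 55 cochaperones, prolyl isomerases and folding enzymes held genes that the symbol rule did not match, among them the prefoldin subunit VBP1. Of these 55, 36 were measured and none was called with either compound. With FRAX-597, 29 of 36 changes (80.6%) were below 0, against 54.7% over all genes, with a median of -0.09 against -0.02. At an unadjusted p under 0.05, 2 were lower, the HSP90 cochaperone CHORDC1 (-0.28) and the CCT cofactor PDCL3 (-0.42), and 0 were higher. These 2 are 5.56% of the list, against 3.61% of all genes lower and 4.04% higher. With IPA-3, 24 of 36 (66.7%) were below 0, against 55.6% over all genes, with a median of -0.07. There 3 were lower at an unadjusted p under 0.05, MANF, a factor secreted on stress of the endoplasmic reticulum (-0.56, limma adjusted p 0.257), SDF2L1 (-0.30) and the mitochondrial HSP90 TRAP1 (-0.36). PPIF, the mitochondrial cyclophilin, was higher by 0.81 with IPA-3. Over all genes 4.11% were lower and 3.10% higher at such a p. In the difference between the compounds, CHORDC1 at -0.41 and MANF at 0.40 had an unadjusted p under 0.05, and none was called.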

How the data were processed

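The authors deposited one table of log2 expression values for 53617 probes on 8 Affymetrix arrays, made from THP-1 total RNA. Affymetrix Expression Console and Transcriptome Analysis Console are named in the submitters' processing notes, and their background correction and normalization are not given in the sources used here. No further scaling was applied to the deposited log2 values. The platform annotation gave 1 gene symbol to 16098 probes, for 14884 genes. The other 37519 probes, with no symbol or with several, were left out. Each gene was read from the probe with the highest mean, which mattered for 779 genes with several probes.

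The members and gene lists were chosen with earlier results of these data known, as were the array sets, which the labels do not give. All 8 arrays were fitted as 4 groups (IPA-3, DMSO 1 and 2, FRAX-597, DMSO 3 and 4) with limma 3.58.1 (lmFit and eBayes, R 4.3.3). The groups share 1 spread per gene, p-values are two-sided, and Benjamini-Hochberg adjustment ran over all 14884 genes with a threshold of 0.05. No covariate was used. With 2 arrays per compound, precision is limited by their number. The fit was tested on simulated data with known changes. There a log2 change of 0.6 was called in 28.4% of the altered genes with IPA-3 and in 20.9% with FRAX-597. A change of 1 was called in 86.6% and 85.1%, so changes of the size seen in the members would often be missed.

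Genes are given with their levels in at least 1 comparison where they had the smallest p of their family with a compound, were among the 5 largest changes in either direction without overlap, or among the 5 largest differences between the compounds, or are well-known members, which made 25 genes. Others are given by fewer values. Alternatives tried were pooled DMSO arrays, each set fitted alone, a replicate block, quantile normalization, median centring, a filter on dim genes, the mean of a gene's probes, eBayes with trend and robust settings, and each array left out. Promoter windows were searched on both strands with Python 3.11.15.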

Additional observations from a re-analysis of the deposited data

Results flagged for a closer look

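In 3 of the 33 members (9.09%) both IPA-3 arrays lay above both of their DMSO arrays while both FRAX-597 arrays lay below both of theirs, against 2.95% of all genes. Their IPA-3 changes were small, 0.11 for HSPH1 (SE 0.15), 0.08 for STIP1 (SE 0.13) and 0.08 for HSPB2-C11orf52 (SE 0.11). The FRAX-597 change minus the IPA-3 change was -0.71 for HSPH1, -0.43 for STIP1 and -0.30 for HSPB2-C11orf52. Tested in the limma fit over all genes, these differences had adjusted p-values of 0.635, 0.807 and 0.845, so none passed the threshold. HSPB2-C11orf52, a readthrough RNA, read 4.67 and 4.82 with FRAX-597, against 4.93 and 5.00 in DMSO 3 and 4, and 4.69 and 4.77 with IPA-3, against 4.64 and 4.66 in DMSO 1 and 2. Outside the members, HSPA1A (-1.53), HSPA1B (-1.45) and BAG3 (-0.85), which the rule set aside, had the same pattern. Of the 36 other folding genes measured, only CHORDC1 (-0.41) had it, a share no larger than that of all genes. The differences of these genes were not called either.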

How the results depend on the processing

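In all 3 comparisons 0 of 33 members were called under every alternative run, while the count over all genes moved. For IPA-3 it was 5, and 0 with pooled DMSO arrays, 96 with each set fitted alone, 72 in the replicate block, 2 after quantile normalization, 8 with trend and robust settings and 0 to 24 with 1 array left out. For FRAX-597 it was 23, and 5 with pooled DMSO arrays, 0 with each set fitted alone, 202 in the replicate block and 2 to 227 with 1 array left out. For the difference it was 2, and 38 in the replicate block and 0 to 27 with 1 array left out, and it was not run with pooled arrays or separate fits. The labels give compound and DMSO arrays no shared numbers, so the replicate block (DMSO 3 with FRAX-597 1, DMSO 4 with FRAX-597 2) was taken from values seen earlier. In the replicate block the lowest adjusted p of a member was 0.0931, for HSPH1 with FRAX-597, whose change remained -0.60, and 11 members (33.3%) had an unadjusted p under 0.05, against 14.8% of all genes. Pooling all 4 DMSO arrays turned the sign of FKBP5 with IPA-3 to -0.10 and of BAG1 with FRAX-597 to 0.043, and of 15 of 50 named changes in all, and it moved the members' median to -0.14 with IPA-3 and 0.0917 with FRAX-597. The median with IPA-3 was 0.01 after quantile normalization and 0.02 without IPA-3 2. Leaving out 1 array at a time gave medians of -0.143 (without FRAX-597 1) to -0.0062 (without FRAX-597 2) with FRAX-597. The pooled reference includes the DMSO arrays of the other set. DMSO 3 and 4 lay above DMSO 1 and 2 by 1.05 in FKBP5 and by 0.94 in BAG1. What set these pairs apart, and the causes of the other moves, were not tested. The filter on dim genes left out 1647 genes and 3 members, HSPB3, HSPB8 and FKBP9P1.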
